A study of Homo sapiens with 15 samples.

Results

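The Kruppel-like factors (KLFs) are zinc finger transcription factors, and 10 of them with a known part in fat cell formation were followed through adipocyte differentiation and through later culture in tumour-conditioned medium. The members were chosen by symbol (KLF2, KLF3, KLF4, KLF5, KLF6, KLF7, KLF10, KLF11, KLF13 and KLF15). Of the 10, 9 had a probe set annotated to them among the 17687 genes measured. KLF13 had no annotated probe set in the platform table used here and was not analysed. Each measured member had 1 probe set, so no choice between probe sets was needed.

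Gene expression was measured on 15 single-colour arrays of ASC52htert, stem cells of human fat that telomerase keeps dividing, with 5 arrays in each of 3 groups. DED (dedifferentiated) cells were seeded in MesenPRO RS, moved 3 days later to StemPRO adipogenic medium for 14 days, and then spent 7 days in RPMI with 10% serum that MDA-MB-231 cells, of a breast carcinoma, had conditioned. MA (mature adipocyte) cells were differentiated likewise and spent those 7 days in the same medium without conditioning. MSC cells were not differentiated, and the sources do not give their medium or culture time at harvest. All groups come from 1 cell line. No label tells whether the 5 arrays of a group are separate cultures, and the p-values cover no more than the spread among arrays, which may be technical.

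KLFs bind CACCC and GC-rich boxes through 3 C-terminal zinc fingers that are much alike among members, and their N-terminal parts recruit different activators or repressors. Several of them act in sequence in adipogenesis, where some drive and some hold back the genes for PPARG and the C/EBP factors. Most of these roles were worked out in mouse preadipocytes, and the grouping below follows them. Values are log2 intensities, on which 1 unit is a doubling, and levels are compared between groups for 1 gene at a time and never between genes. Differences are DED minus MA, MA minus MSC or DED minus MSC.

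The promoters of the 4 measured adipogenic members are shown because these genes, of like role, moved in unlike ways. Each is the 250 bases before an annotated start, from RefSeq (GRCh38.p14), written 5′ to 3′ on the gene's strand. Capitals mark the boxes that KLF and SP factors can bind, CACCC (or GGGTG) and GGGCGG (or CCGCCC).
KLF15, chr3:126357409-126357658, minus strand: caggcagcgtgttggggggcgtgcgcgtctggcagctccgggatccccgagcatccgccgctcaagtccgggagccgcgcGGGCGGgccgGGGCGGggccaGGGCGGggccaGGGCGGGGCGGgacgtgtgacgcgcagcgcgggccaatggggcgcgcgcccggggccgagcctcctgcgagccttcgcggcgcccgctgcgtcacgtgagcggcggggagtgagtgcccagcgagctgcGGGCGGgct
KLF5 start 1, chr13:73054726-73054975, plus strand: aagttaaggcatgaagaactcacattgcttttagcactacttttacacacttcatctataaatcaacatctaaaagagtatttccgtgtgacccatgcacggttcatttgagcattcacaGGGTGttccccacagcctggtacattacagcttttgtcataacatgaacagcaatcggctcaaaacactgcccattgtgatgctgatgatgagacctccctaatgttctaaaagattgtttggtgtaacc
KLF5 start 2, chr13:73058755-73059004, plus strand: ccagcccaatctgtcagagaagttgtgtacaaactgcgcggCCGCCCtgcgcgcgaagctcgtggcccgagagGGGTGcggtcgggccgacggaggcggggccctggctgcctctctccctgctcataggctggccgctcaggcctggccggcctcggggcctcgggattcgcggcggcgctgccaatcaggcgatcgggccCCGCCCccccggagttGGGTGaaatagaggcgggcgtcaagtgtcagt
KLF4, chr9:107489770-107490019, minus strand: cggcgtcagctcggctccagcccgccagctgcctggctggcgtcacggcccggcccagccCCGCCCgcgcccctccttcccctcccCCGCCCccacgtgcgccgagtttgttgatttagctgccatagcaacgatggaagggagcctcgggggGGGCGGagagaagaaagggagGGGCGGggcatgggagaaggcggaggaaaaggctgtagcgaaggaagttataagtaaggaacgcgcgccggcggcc
KLF6, chr10:3785210-3785459, minus strand: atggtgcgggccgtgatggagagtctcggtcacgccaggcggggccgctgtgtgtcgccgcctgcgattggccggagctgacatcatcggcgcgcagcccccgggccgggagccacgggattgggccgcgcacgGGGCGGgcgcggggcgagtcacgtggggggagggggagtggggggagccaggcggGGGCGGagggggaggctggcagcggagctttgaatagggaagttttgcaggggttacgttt

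Promoter windows of 8 of the 10 members were searched, 13 in all. No KLF3 window was among them, and KLF10, on chromosome 8, was left out of this search. On either strand, the KLF15 window held 6 GGGCGG boxes, the KLF4 window 4 and the KLF6 window 2, and none of these held CACCC. KLF5 has a pair of annotated starts whose windows differ. The first is 40.8% G and C with 1 CACCC box and no GGGCGG box, and the second is 70.8% G and C with 2 of each. No CACCC box overlapped a GGGCGG box in the windows printed. Among all 35116 promoter windows of this length, 54.7% held CACCC and 42.6% held GGGCGG, so the boxes are common. The glucocorticoid element, searched as its spaced palindrome, was in 0.327% of all windows and in none of the 13 member windows searched. TTNNGNAA, the C/EBP motif, was in 33.2% of all windows and, among the members searched, in KLF7 windows alone. These are matches of letters in a short window and not sites.

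Arrays of a group correlated over genes at 0.982 or more in DED, 0.992 in MA and 0.992 in MSC. The lowest value lay between DED arrays 1 and 3, which also had the lowest weights of all 15 arrays (0.515 and 0.489, by limma's estimate of how closely each array follows its group). The mean of 11 adipocyte markers was 10.87 in DED array 1 and 9.38 to 9.77 in the other DED arrays, against 11.97 to 12.17 in MA and 5.19 to 5.53 in MSC, so the DED arrays kept levels between MA and MSC. All 11 rose in DED relative to MSC. All 6 mesenchymal markers listed (NT5E, THY1, ENG, PDGFRA, PDGFRB and ALCAM) averaged above 8.31 in every group. That value is the 95th percentile of 612 negative control probe sets, whose median is 4.80. Where the lower group of a difference averages under 8.31, the size depends on background. Of 9 epithelial carcinoma markers, 1 (KRT8) averaged above 8.31 in each group, EPCAM and CDH1 lay under 4.80 in each group, and the list mean was 5.76 to 5.89 in DED, 5.64 to 5.77 in MA and 5.73 to 5.91 in MSC. None of them passed the test in DED against MA, where 25.9% of all genes did. ESRP1 rose in DED relative to MSC by 0.48 (SE 0.14, limma adjusted p = 0.0080), with both means under 4.80. For ELF3, MA minus MSC was -0.48 (SE 0.13, adjusted p = 0.0061), with both means under 8.31. Of 9 leukocyte and endothelial markers the mean was 5.85 to 5.98 in DED, 5.78 to 5.91 in MA and 5.72 to 5.94 in MSC. PTPRC, the leukocyte marker, averaged 5.76 in DED, 5.51 in MA and 5.62 in MSC. CD14 rose by 1.40 in DED relative to MA (SE 0.23, limma adjusted p = 7.6e-05), from 5.51 in MA to 6.91 in DED, both under 8.31. CD68 fell by 1.18 (SE 0.16, adjusted p = 1.0e-05), from 9.15 in MA to 7.97 in DED. Both sizes depend on background, and the part of CD14 and CD68 in the results was not tested.

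KLF15, which induces the glucose transporter GLUT4 and PPARG in mouse adipocytes, had the largest differences of the 9 members, rising in MA and DED over MSC, and DED did not differ from MA beyond the spread. It was at 8.30, 8.70, 8.66, 8.85 and 8.88 in DED, at 8.66, 8.66, 8.51, 8.51 and 9.07 in MA and at 5.30, 5.11, 5.13, 5.33 and 5.62 in MSC. The DED and MA arrays overlapped and all lay above every MSC array. MA exceeded MSC by 3.38 (SE 0.14, limma adjusted p = 1.3e-13) and DED exceeded MSC by 3.38 (SE 0.14, adjusted p = 9.2e-14). DED and MA differed by -0.0040 (95% interval -0.29 to 0.29, adjusted p = 0.99). The MSC mean of 5.30 lay near the background, so the size of the rise depends on background and no fold is given. In these whole-culture samples more cells expressing a gene and more RNA per cell cannot be told apart, and differences in medium and culture time cannot be told apart from differentiation where MSC is one of the groups.

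KLF5, which acts with C/EBP factors on the PPARG promoter early in mouse adipogenesis, rose in DED and did not differ between MA and MSC beyond the spread. It was at 6.97, 7.49, 7.99, 7.48 and 6.84 in DED, at 5.80, 5.71, 5.79, 5.57 and 6.18 in MA and at 5.79, 5.78, 5.81, 5.69 and 5.70 in MSC. Every DED array was above every array of MA and MSC, and the DED arrays were spread over more than 1 log2 unit, with array 3 highest. The difference of DED from MA was 1.54 (SE 0.17, limma adjusted p = 7.2e-07) and from MSC 1.60 (SE 0.17, adjusted p = 2.1e-07). MA minus MSC was 0.056 (95% interval -0.30 to 0.41, adjusted p = 0.85). All KLF5 values lay under 8.31, within the range of the negative controls, so the sizes depend on background.

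KLF4, which induces C/EBPB in the first hours of mouse adipogenesis and is also known as a stem cell factor, was lower in MA than in MSC and lower again in DED. It was at 7.89, 7.87, 8.06, 7.23 and 7.66 in DED, at 8.55, 8.39, 8.33, 8.21 and 8.47 in MA and at 10.04, 9.04, 9.18, 9.57 and 9.38 in MSC. The 3 groups did not overlap, and DED, in which 10 of 11 adipocyte markers fell relative to MA, held the lowest values. The DED mean of 7.74 lay under 8.31, so the sizes against DED depend on background. KLF4 fell by 1.05 in MA relative to MSC (SE 0.17, limma adjusted p = 5.5e-05), by 0.65 in DED relative to MA (SE 0.17, adjusted p = 0.0075) and by 1.70 in DED relative to MSC (SE 0.17, adjusted p = 9.8e-08).

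KLF6, which represses the preadipocyte gene DLK1 in mouse cells, rose in MA and fell in DED relative to MA, and DED did not differ from MSC beyond the spread. It was at 13.28, 13.23, 13.23, 13.14 and 12.98 in DED, at 13.72, 13.82, 13.83, 13.83 and 13.96 in MA and at 13.19, 13.20, 13.05, 13.19 and 13.04 in MSC. Every MA array lay above every other array, while DED and MSC overlapped. The rise in MA over MSC was 0.70 (SE 0.096, limma adjusted p = 7.0e-06), a fold of 1.62, and the fall in DED relative to MA was -0.66 (SE 0.096, adjusted p = 2.4e-05), a fold of 1.58. DED minus MSC was 0.038 (95% interval -0.16 to 0.24, adjusted p = 0.82). DLK1 itself was at 5.44 in DED, 5.68 in MA and 5.70 in MSC on average, and none of its differences passed the test (adjusted p from 0.096 to 0.93). The DLK1 means lay under 8.31 in every group, so the lack of calls says little of this gene.

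**Figure D1:**
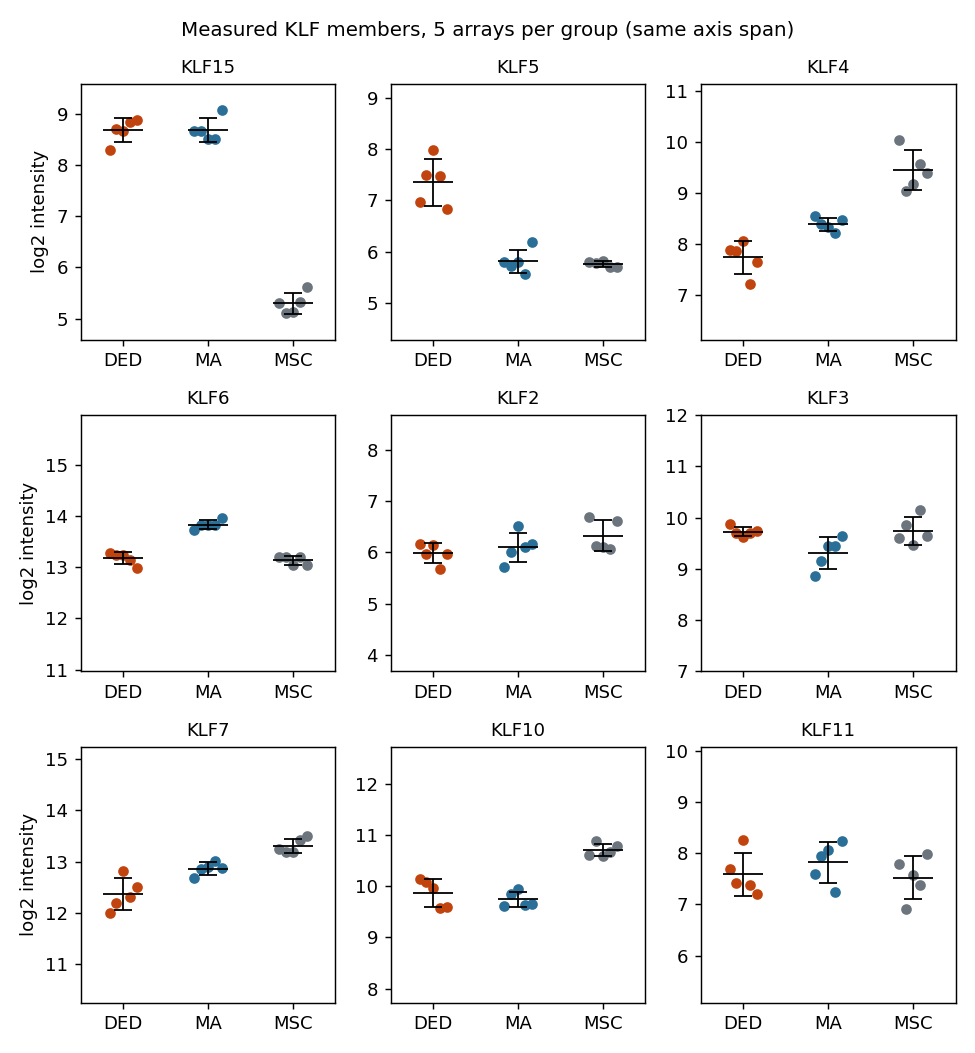
Log2 intensity (vertical axes, each spanning 5 units) of the 9 measured KLF members in DED, MA and MSC; points are single arrays in the order 1 to 5, long bars are means and whiskers are SD over 5 arrays. KLF15 is high in DED and MA, KLF5 is high in DED alone, KLF6 is highest in MA, and KLF4 and KLF7 step down through MA to DED.

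Among the anti-adipogenic members, KLF7, which slows the differentiation of human preadipocytes when raised, fell in MA and again in DED. It was at 12.00, 12.20, 12.82, 12.31 and 12.50 in DED, at 12.68, 12.85, 12.90, 13.01 and 12.88 in MA and at 13.24, 13.19, 13.18, 13.42 and 13.49 in MSC. MA and MSC did not overlap, and of the DED arrays array 3 alone reached into the MA range. KLF7 fell by 0.44 in MA relative to MSC (SE 0.13, limma adjusted p = 0.014, a fold of 1.36), by 0.50 in DED relative to MA (SE 0.13, adjusted p = 0.0082, a fold of 1.41) and by 0.94 in DED relative to MSC (SE 0.13, adjusted p = 1.0e-05).

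KLF3, which represses the C/EBPA gene in mouse preadipocytes through the corepressor CtBP, had small differences that rest on single arrays. It was at 9.87, 9.69, 9.62, 9.70 and 9.74 in DED, at 8.85, 9.16, 9.45, 9.44 and 9.63 in MA and at 9.60, 9.86, 9.46, 10.15 and 9.64 in MSC. MA was the lowest group and the most spread, and it overlapped both others by 1 or more arrays. MA minus MSC was -0.44 (SE 0.15, limma adjusted p = 0.026), DED minus MA was 0.42 (SE 0.15, adjusted p = 0.041) and DED minus MSC was -0.018 (95% interval -0.32 to 0.29, adjusted p = 0.95). The call of DED against MA was lost without MA array 1 (adjusted p = 0.13) or 2 (0.093), without DED array 1 (0.081), 2 (0.060), 4 (0.064) or 5 (0.070), and without DED arrays 1 and 3 together (0.11). That of MA against MSC was lost without MA array 1 (0.088) or 2 (0.064) and without MSC array 2 (0.060) or 4 (0.088). With the replicate number as a block the adjusted p of DED against MA was 0.051.

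KLF2, a repressor of the PPARG promoter in mouse preadipocytes, lay between 5.67 and 6.69 in all arrays. It was at 6.16, 5.96, 6.15, 5.67 and 5.97 in DED, at 5.72, 6.01, 6.51, 6.11 and 6.16 in MA and at 6.69, 6.13, 6.11, 6.07 and 6.62 in MSC. The groups overlapped, all values lay under 8.31, and no difference passed the test, the largest being DED minus MSC at -0.34 (95% interval -0.67 to -0.014, limma adjusted p = 0.11; 0.030 with array weights).

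KLF10, first described as a TGF-beta inducible early gene, fell in MA and DED relative to MSC, and DED did not differ from MA beyond the spread. It was at 10.14, 10.08, 9.96, 9.57 and 9.59 in DED, at 9.62, 9.85, 9.94, 9.64 and 9.65 in MA and at 10.60, 10.88, 10.59, 10.67 and 10.79 in MSC. DED and MA overlapped and lay below every MSC array. KLF10 fell by 0.97 in MA relative to MSC (SE 0.13, limma adjusted p = 3.8e-06, a fold of 1.95) and by 0.84 in DED relative to MSC (SE 0.13, adjusted p = 2.1e-05, a fold of 1.79). DED minus MA was 0.13 (95% interval -0.14 to 0.39, adjusted p = 0.53).

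KLF11, its close relative, which like KLF10 represses through SIN3A, showed no difference past the test. It was at 7.70, 7.41, 8.26, 7.37 and 7.20 in DED, at 7.60, 7.94, 8.06, 7.25 and 8.24 in MA and at 7.78, 6.90, 7.58, 7.37 and 7.98 in MSC. Its spread was about 1 log2 unit within each group, with means of 7.59 ± 0.42 in DED, 7.82 ± 0.39 in MA and 7.52 ± 0.42 in MSC (SD, n = 5 each). The largest of its differences was MA minus MSC at 0.30 (95% interval -0.17 to 0.76, limma adjusted p = 0.35).

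**Figure D2:**
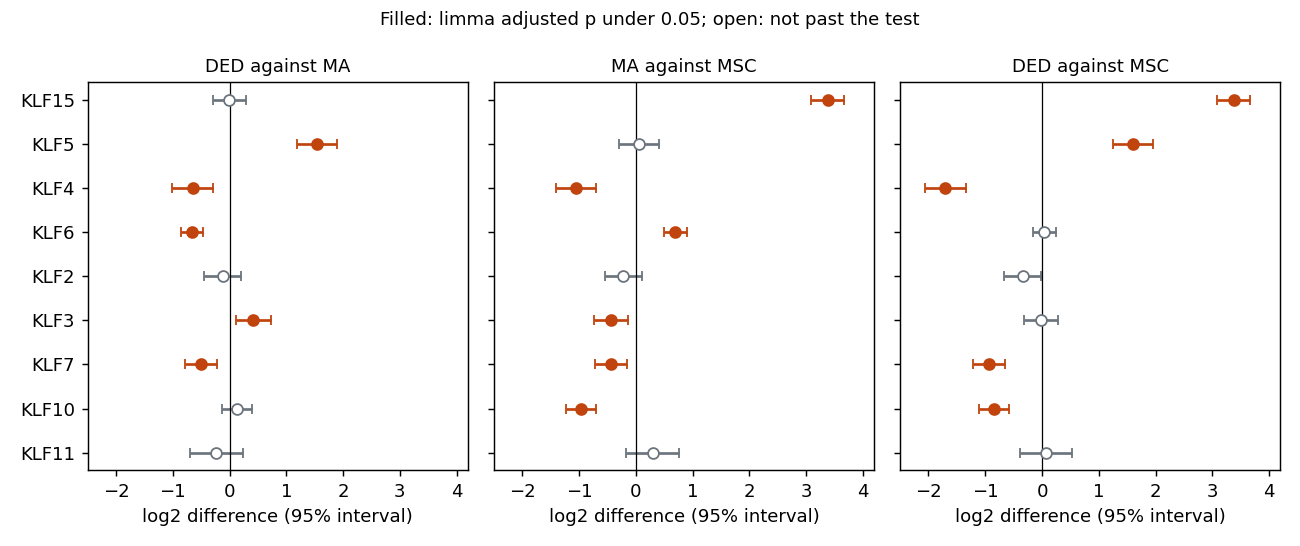
Log2 difference (horizontal axes) of each measured KLF member in DED against MA, MA against MSC and DED against MSC; points are limma estimates and whiskers 95% intervals, filled where the adjusted p was under 0.05. KLF15 has the largest differences, 3.38 against MSC in both MA and DED, and lies on 0 between DED and MA.

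Counted together, 5 of the 9 measured members passed the test in DED against MA (2 rose, KLF5 and KLF3, and 3 fell, KLF4, KLF6 and KLF7), where 25.9% of all genes passed, 12.9% as rises and 13.0% as falls. In MA against MSC 6 passed (KLF15 and KLF6 rose; KLF3, KLF4, KLF7 and KLF10 fell), where 33.0% of all genes passed, 15.4% as rises and 17.6% as falls. In DED against MSC 5 passed (KLF15 and KLF5 rose; KLF4, KLF7 and KLF10 fell), where 33.4% of all genes passed, 17.1% as rises and 16.4% as falls. The arrays of the groups did not overlap for 3 members in DED against MA (18.1% of all genes), 5 in MA against MSC (27.0%) and 5 in DED against MSC (25.1%). The members' median difference was -0.12 in DED against MA, -0.22 in MA against MSC and -0.018 in DED against MSC, against medians over all genes of 0.018, -0.0020 and 0.028. The comparisons share arrays with each other. With so few members the counts describe the family and do not set it apart from other genes.

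By role, the adipogenic members went in different directions at each step. In DED against MA, 1 of 4 rose (KLF5) and 2 fell (KLF4 and KLF6), and in MA against MSC, 2 rose (KLF15 and KLF6) and 1 fell (KLF4). Of the 3 anti-adipogenic members, 1 rose (KLF3) and 1 fell (KLF7) in DED against MA, and 2 fell (KLF3 and KLF7) in MA against MSC. Among all genes, 12.9% rose and 13.0% fell in DED against MA, and 15.4% rose and 17.6% fell in MA against MSC. Counts among 3 or 4 genes do not set either role apart from other genes.

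Leaving out DED arrays 1 and 3 together changed none of the members' calls in DED against MA except that of KLF3. Without both, DED minus MA was 1.46 for KLF5 (limma adjusted p = 1.3e-06), -0.80 for KLF4 (0.0046), -0.72 for KLF6 (5.8e-05) and -0.53 for KLF7 (0.0031). KLF15 was then at 0.13 (adjusted p = 0.61) and KLF3 at 0.40 (adjusted p = 0.11). DED array 1, the one highest in adipocyte markers, held the lowest KLF15 and KLF7 values of its group and the highest KLF2, KLF3, KLF6 and KLF10 values. Array 3 held the highest KLF4, KLF5, KLF7 and KLF11 values and the lowest KLF3 value.

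Of the 7 further KLF genes measured (KLF1, KLF8, KLF9, KLF12, KLF14, KLF16 and KLF17), KLF9 and KLF12 changed. In DED against MA 1 fell (13.0% of all genes), and in MA against MSC 2 rose (15.4% of all genes). In DED against MSC 1 rose and 1 fell (17.1% and 16.4% of all genes). Such counts in a short list do not set it apart from other genes. KLF9, like KLF15 an established target of the glucocorticoid receptor, was at 11.88, 11.63, 11.42, 11.16 and 11.20 in DED, at 10.94, 10.98, 11.30, 12.04 and 10.97 in MA and at 8.86, 8.94, 9.17, 8.87 and 8.94 in MSC. As for KLF15, the DED and MA arrays overlapped and all lay above every MSC array. MA exceeded MSC by 2.29 (SE 0.18, limma adjusted p = 4.0e-09, a fold of 4.89), DED exceeded MSC by 2.50 (SE 0.18, adjusted p = 8.7e-10), and DED minus MA was 0.21 (95% interval -0.17 to 0.60, adjusted p = 0.46).

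KLF12, a repressor that recruits CtBP, rose in MA over MSC and was lower in DED than in either. It was at 8.54, 7.76, 8.42, 8.30 and 8.09 in DED, at 9.76, 9.70, 9.47, 10.01 and 9.66 in MA and at 9.09, 9.03, 9.07, 9.07 and 9.03 in MSC. The 3 groups did not overlap. KLF12 rose by 0.66 in MA relative to MSC (SE 0.13, limma adjusted p = 0.00054) and fell by 1.50 in DED relative to MA (SE 0.13, adjusted p = 4.2e-08) and by 0.84 in DED relative to MSC (SE 0.13, adjusted p = 4.2e-05). The DED mean of 8.22 lay under 8.31, so the sizes against DED depend on background. None of the other 5 passed the test in any comparison (limma; 1 unadjusted p under 0.05, KLF16 in DED against MA at 0.042), and KLF8 and KLF14 lay under the negative control median of 4.80 in every group.

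The SP factors, which share the zinc fingers and the GC box with the KLFs, gave 0 calls among 9 genes in each comparison. Among all genes 25.9% passed in DED against MA, 33.0% in MA against MSC and 33.4% in DED against MSC. Of the 9, 2 (SP1 and SP3) averaged above 8.31, so the lack of calls says little of the other 7. SP1 averaged 12.22 in DED, 12.15 in MA and 12.13 in MSC, and SP3 averaged 12.23 in DED, 12.37 in MA and 12.29 in MSC. The smallest unadjusted p was 0.025, for SP7 in DED against MA, and it was the 1 under 0.05 (limma).

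Of 13 measured genes that KLFs act with in adipogenesis, 7 fell, 1 rose and 5 did not pass the test in DED against MA (median -0.47), where 13.0% of all genes fell and 12.9% rose. The riser, CEBPD, averaged 5.01 in DED and 4.65 in MA, close to the negative control median. In MA against MSC, where 15.4% of all genes rose, 7 rose and none fell (median 0.67; 0 falls in limma also at an unadjusted p under 0.05). PPARG, the receptor that drives fat cell formation, was at 9.01, 8.91, 9.03, 8.96 and 8.52 in DED, at 10.41, 10.55, 10.62, 10.74 and 10.75 in MA and at 7.11, 7.26, 7.03, 7.15 and 6.76 in MSC. It kept an intermediate level in DED, below every MA array and above every MSC array. Its fall in DED relative to MA was -1.73 (SE 0.12, limma adjusted p = 1.5e-09). EBF2, a factor of adipocyte commitment, fell by 1.78 (SE 0.12, adjusted p = 1.2e-09) to 8.65 in DED, against 10.43 in MA. Unlike PPARG, EBF2 was not intermediate in DED. It averaged 8.83 in MSC, and DED minus MSC was -0.18 (95% interval -0.44 to 0.082, adjusted p = 0.31).

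SLC2A4, the gene of GLUT4 and a KLF15 target in mouse, was singled out after its values had been seen. It was at 7.61, 7.14, 6.81, 7.58 and 7.34 in DED, at 8.55, 8.27, 8.32, 8.61 and 8.47 in MA and at 7.08, 6.82, 7.45, 6.65 and 7.65 in MSC. DED lay below MA without overlap and overlapped MSC. KLF15 did not differ between DED and MA beyond the spread, and the difference between the genes' changes was not tested. SLC2A4 fell by 1.15 in DED relative to MA (SE 0.18, limma adjusted p = 5.8e-05) and DED minus MSC was 0.17 (95% interval -0.21 to 0.54, adjusted p = 0.54). The DED and MSC means lay under 8.31, so both sizes depend on background. CEBPA, the target of KLF3 in mouse, was likewise named after its values were seen. It averaged 5.43 ± 0.20 in DED, 5.97 ± 0.24 in MA and 5.30 ± 0.15 in MSC (SD, n = 5 each), under 8.31 throughout, so its sizes depend on background. CEBPA rose in MA relative to MSC by 0.67 (SE 0.13, limma adjusted p = 0.00037), and DED minus MA was -0.54 (SE 0.13, adjusted p = 0.0034). DED minus MSC was 0.12 (95% interval -0.15 to 0.40, adjusted p = 0.53). CEBPB, the KLF4 target, averaged 6.18 in DED, 6.48 in MA and 6.32 in MSC, and none of its differences passed the test (adjusted p from 0.13 to 0.50). The CEBPB means also lay under 8.31, so the lack of calls says little of this gene.

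**Figure D3:**
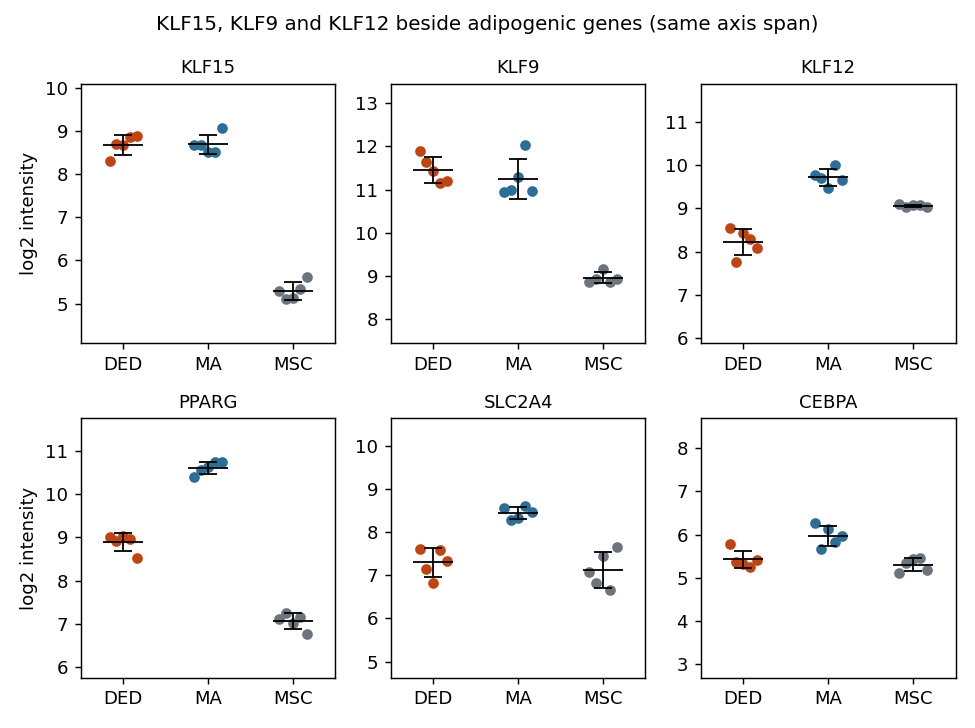
Log2 intensity (vertical axes, each spanning 6 units) of KLF15, KLF9, KLF12, PPARG, SLC2A4 and CEBPA in DED, MA and MSC; points are arrays, long bars means and whiskers SD over 5 arrays. The DED and MA arrays of KLF15 and KLF9 overlap, whereas KLF12, PPARG, SLC2A4 and CEBPA have lower means in DED than in MA.

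Other genes reported to respond to glucocorticoid were read beside KLF15 and KLF9, since the receptor acts on both. Of 8 measured, 5 rose and 2 fell in MA against MSC, where 15.4% of all genes rose and 17.6% fell. In DED against MA, 2 rose and 2 fell (median -0.013), where 12.9% of all genes rose and 13.0% fell. ZBTB16, a zinc finger repressor, was at 13.33 ± 0.12 in DED, 13.53 ± 0.14 in MA and 5.76 ± 0.24 in MSC (SD, n = 5 each). It was high in DED and MA, with DED minus MA at -0.19 (SE 0.12, limma adjusted p = 0.28). MAOA, a monoamine oxidase, averaged 11.34 in DED, 12.03 in MA and 5.50, under 8.31, in MSC, and fell in DED relative to MA by 0.69 (SE 0.13, adjusted p = 0.00053). SGK1, a kinase, fell in MA relative to MSC (7.23 in MA and 9.90 in MSC, adjusted p = 2.1e-09), by a size that depends on background, and NR3C1, the receptor itself, fell by 0.79 (SE 0.13, adjusted p = 4.7e-05).

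Of 8 measured metabolic genes reported as KLF15 targets in mouse tissues, 7 of amino acid breakdown and ACSS1, 3 rose and 1 fell in MA against MSC (15.4% and 17.6% of all genes), and 1 rose and 3 fell in DED against MA (12.9% and 13.0% of all genes). The riser in DED against MA was ACSS1, and none of the amino acid breakdown genes passed as a rise there. ALDH4A1, of proline breakdown, averaged 7.76 in DED, 9.42 in MA and 6.89 in MSC, and its fall in DED relative to MA was -1.66 (SE 0.14, limma adjusted p = 1.9e-08). The DED mean lay under 8.31, so the size of this fall depends on background. ACSS1, the mitochondrial acetyl-CoA synthetase, was higher in DED, with 9.29 in DED, 8.35 in MA and 6.92 in MSC, and rose in DED relative to MA by 0.94 (SE 0.18, adjusted p = 0.00044).

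Of 15 measured genes of KLF cofactors and turnover enzymes, 2 rose and 4 fell in DED against MA (median 0.10), where 25.9% of all genes passed. In MA against MSC, 3 rose and 3 fell (median -0.060), where 33.0% of all genes passed. Such counts in a short list do not set it apart from other genes. SIN3A, the corepressor of KLF10 and KLF11, rose to 13.09 ± 0.20 in DED, against 12.22 ± 0.15 in MA (SD, n = 5 each; difference 0.87, SE 0.12, limma adjusted p = 2.0e-05). FHL3, a partner of KLF3, rose by 0.64 (SE 0.14, adjusted p = 0.0021) to 8.73 in DED, against 8.09 in MA. KAT2B, an acetyltransferase, fell by 1.11 (SE 0.13, adjusted p = 1.1e-06) to 7.92 in DED, against 9.03 in MA. WWP1, a ubiquitin ligase that targets KLF5, fell by 0.90 to 8.27 ± 0.23 in DED, against 9.17 ± 0.17 in MA (SE 0.13, adjusted p = 2.7e-05). The lower group of FHL3, KAT2B and WWP1 averaged under 8.31, so their sizes depend on background.

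**Figure D4:**
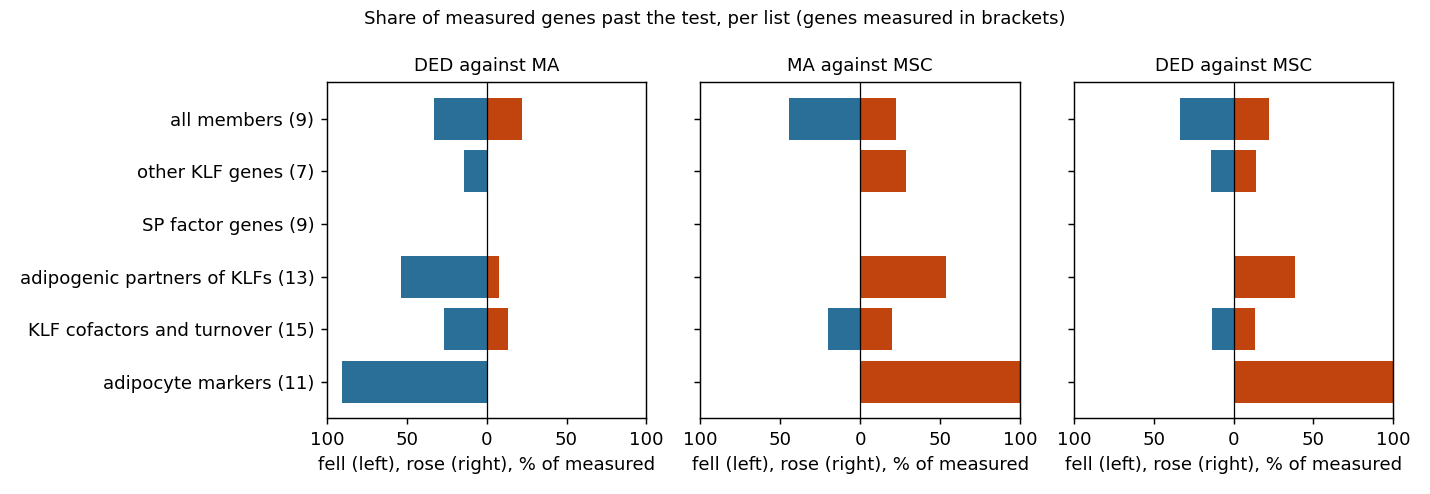
Share of the measured genes of each list (rows) that passed the test, in percent on the horizontal axes, fallen to the left and risen to the right of 0, for DED against MA, MA against MSC and DED against MSC. The KLF members changed in both directions in each comparison, no SP factor passed, and adipocyte markers rose in MA and mostly fell in DED relative to MA.

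For the 3 members whose group means spanned 1 log2 unit or more, the genes most like them were found by the root mean square difference over the 15 arrays after centring each gene. For KLF15 they were NFIL3 (0.23), HSD11B1 (0.34) and EFNA5 (0.34). NFIL3 averaged 13.08 in DED, 12.83 in MA and 9.71 in MSC, and HSD11B1, which makes active cortisol from cortisone, averaged 10.37 in DED, 9.98 in MA and 6.65 in MSC. For KLF5 they were ZXDC (0.22), MDM2 (0.22) and SLC2A3 (0.24). MDM2, the ubiquitin ligase of p53, averaged 10.81 in DED, 9.13 in MA and 9.29 in MSC, and SLC2A3, the glucose transporter GLUT3, averaged 10.96 in DED, 9.26 in MA and 9.35 in MSC. For KLF4 they were CENPL (0.23), KNTC1 (0.24) and TUBB (0.25). CENPL, a centromere protein, averaged 5.73 in DED, 6.28 in MA and 7.56 in MSC, and KNTC1, of the kinetochore, averaged 6.29 in DED, 7.27 in MA and 8.21 in MSC. Likeness here says that the centred values were close on these arrays and carries no test.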

How the data were processed

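The authors deposited log2 intensity values in 1 table of 24351 probe sets and 15 arrays. The submitters' processing notes name RMA and Transcriptome Analysis Console. RMA makes arrays alike in distribution, which hides any change common to all genes. No source names versions or a genome build. Probe sets with 1 gene symbol numbered 17709, and the one with the highest mean was kept for each of the 20 genes with several, leaving 17687 genes.

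The comparisons used limma 3.58.1 under R 4.3.3 (1 mean per group, all 15 arrays, no covariates, no filter), with two-sided p-values adjusted by Benjamini-Hochberg over all genes and called at 0.05. Intervals are moderated 95% intervals. The number of arrays limits the precision. The fit was tested on simulated data. Same-numbered arrays of different groups deviated with correlations of -0.11 to 0.087 over genes, so the numbers were not treated as pairs. Alternatives were quantile normalization, a common median, filters on dim genes, single probe sets, an intensity trend, array weights, fewer groups, a replicate block and arrays left out.

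All members are named whatever their test. From each further list at most 2 rises and 2 falls per comparison past the test are named, fewer where not needed. SLC2A4, CEBPA, CEBPB, CEBPD, DLK1, SP1, SP3, KLF16, SP7 and the cell type markers named fall outside this and were chosen after their values were seen. The members and lists were chosen with earlier results of these data known. Plots came from matplotlib 3.10.9 under Python 3.11.15.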

Additional observations from a re-analysis of the deposited data

Results flagged for a closer look

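KLF15 in MA array 5 was at 9.07, apart from the other MA arrays, the nearest of which was at 8.66, a gap of 0.73 of the group's range where 0.71 is the limit. It was the 1 value that stood out among 27 sets of 5 arrays, and chance marks about 1 set in 20. Without that array the difference of MA from MSC was 3.29, and the call was the same.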

How the results depend on the processing

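The number of members past the test stayed within 1.5 times under all alternatives run. With 1 array left out at a time it ran from 4 to 5 in DED against MA, from 5 to 6 in MA against MSC, and was 5 throughout in DED against MSC. Of 666 member values under alternatives, 653 kept their call, 12 lost it, all of them KLF3, and 1 gained it, KLF2 in DED against MSC with array weights. No called value changed sign. With the replicate number as a block the counts were 4 in DED against MA, 6 in MA against MSC and 5 in DED against MSC, and the block changed no call but that of KLF3 in DED against MA. Leaving out genes under 8.31 in every group removes KLF2, KLF5 and KLF11, which left 4, 6 and 4 calls in DED against MA, MA against MSC and DED against MSC. Intensities near the negative controls limit KLF2, KLF5 and KLF11 in all groups, KLF15 in MSC and KLF4 in DED.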

Other observations

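The kinase module that induces KLF2 and KLF4 in endothelial cells (MEK5, ERK5 and the MEF2 factors) had 1 gene that rose at both steps. MAP2K5, the gene of MEK5, was at 12.96, 13.29, 13.05, 13.16 and 13.10 in DED, at 11.86, 11.80, 12.09, 12.20 and 12.03 in MA and at 10.56, 10.81, 10.67, 10.71 and 10.78 in MSC. The 3 groups did not overlap, and the differences were 1.12 (SE 0.11, limma adjusted p = 9.1e-08) for DED against MA and 1.29 (SE 0.11, adjusted p = 5.3e-09) for MA against MSC. Of the 7 genes of the module, 3 rose, 1 fell and 3 did not pass the test in DED against MA. Among all genes in that comparison 12.9% rose and 13.0% fell, and counts in so short a list do not set it apart. KLF2 did not pass the test there, and KLF4 fell.

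KLF10 and KLF11 are TGF-beta inducible, and 16 genes of the TGF-beta pathway were measured (ligands, receptors, SMADs and their regulators, and responsive genes). Of the 16, 4 rose and 8 fell in MA against MSC, where 15.4% of all genes rose and 17.6% fell. In DED against MA, 7 rose and 2 fell, where 12.9% of all genes rose and 13.0% fell. The list mixes components with responsive genes, and its count does not describe a response. TGFB3, a ligand, averaged 6.68 ± 0.22 in DED, 6.59 ± 0.29 in MA and 9.21 ± 0.35 in MSC (SD, n = 5 each), and like KLF10 was higher in MSC than in MA. TGFBR1, the type I receptor, rose in DED relative to MA by 2.25 (SE 0.13, limma adjusted p = 9.1e-11), and ID2 by 2.63 (SE 0.16, adjusted p = 1.7e-10), whereas ID1 fell by 2.86 (SE 0.26, adjusted p = 4.8e-08), with DED at 3.55 under the negative control median, and SMAD3 by 1.26 (SE 0.16, adjusted p = 4.5e-06). The MA means of ID2 (7.24) and ID1 (6.42) lay under 8.31, so the sizes for these genes depend on background. KLF10 did not pass the test in that comparison.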
